A study of Mus musculus with 16 samples.

Results

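The genes described here code for the subunits of the Polycomb repressive complexes PRC1 and PRC2, measured in mouse embryonic stem (ES) cells of the line E14 on single-colour Agilent arrays. They are 31 genes chosen by name, and a probe belonged to a gene when the RefSeq accession in the array annotation mapped to its symbol. The 31 genes had 46 probes among the 20968 genes named on the array, and the rule reads names, not measured values. The cells were cultured in serum with LIF, transfected with plasmid by lipofection and sorted for eGFP at 24 h, with RNA taken at 48 h. There were 4 groups of 4 arrays. The control, EGFP, received the fluorescent protein alone. Ptn_VP64, Ptn_DEL and Ptn_Delta received a TALE, a designed DNA-binding protein named for the gene Ptn (pleiotrophin, a secreted growth factor), with VP64 (a synthetic activation domain), with DEL (an acidic peptide used to decondense chromatin), or in the form called Delta. The sources used here do not say what Delta carries. All 4 groups therefore share transient transfection and a sort for fluorescence, and each is a sorted population of a single parental line. Each group held 2 biological and 2 technical replicates, and which arrays repeat a sample is not stated.

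PRC2 places methyl groups on lysine 27 of histone H3 through its EZH subunit, which is active only together with EED and SUZ12. PRC1 places ubiquitin on histone H2A through a RING protein paired with a PCGF protein, and its CBX subunit in the canonical form binds the mark that PRC2 makes. In ES cells the complexes hold genes for later development silent, and PRC1 that carries KDM2B is recruited to unmethylated CG-rich DNA.

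Levels are on a log2 scale on which 0 stands for the 75th percentile of processed signals, taken over the non-control spots of the same array. Levels of different genes come from different probes and are not ranked against each other. A gene was tested when 4 or more of the 16 arrays had its probe well above background, which 29 of the 31 genes and 12878 of all genes met. The brightest probe stood for each gene, and 17 of the 31 genes were well above background on all 16 arrays. The other 12 that passed did so on fewer arrays. Ring1 was well above background on 1 array and Cbx8 on none, and neither was tested.

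The 75th percentile ran from 209.3 to 1253 units of intensity over the 16 arrays, and 27.15 to 43.78% of spots were well above background. Both lowest values were those of EGFP replicate 2, and EGFP replicate 1 had the next lowest share of spots, 32.47%. The weakest signal thus fell in the control group, and its part in the differences from EGFP and in the detection counts was not tested. Dim or bright patches covered 0.64% (EGFP replicate 4) to 35.56% (EGFP replicate 1) of an array. Of the 496 spots used for the Polycomb genes, 65 (13.1%) lay in one, 53 of them on slide 1 and 12 on slide 2. A second scale, called patch-corrected, therefore subtracts the median shift of the surrounding spots and leaves out spots inside a patch. It keeps spots marked as outliers, which the planned test described below leaves out. Of the 496 spots, 92 (18.5%) were marked, beside 14.8% for all genes. A change from an uncorrected to a patch-corrected difference therefore mixes both steps. Uncorrected levels of single arrays include marked spots. The patch-corrected scale gave values for 28 of the genes (Phc2 had too few arrays) and was chosen after the data had been seen. Each construct occupies 1 column of both slides, so position on the slide and construct cannot be told apart. The ES cell markers were well above background on all 16 arrays for 14 of 14 genes. Marker sums use uncorrected levels, with marked spots and spots in patches kept, so the brightest markers weigh most. The summed level of 8 trophoblast markers (75th percentile as 1) ran from 4.05 to 22.6 after EGFP, 23.6 to 176.0 after Ptn_VP64, 13.9 to 50 after Ptn_DEL and 15.2 to 65.6 after Ptn_Delta, and 8 of 8 were matched. Median log2 levels were 3.77 for Krt18, 2.41 for Tfap2c, 2.40 for Krt8, 0.73 for Krt19, -1.15 for Gata3, -1.19 for Eomes, -1.25 for Cdx2 and -4.36 for Elf5. Krt8 was well above background on 15 arrays, Krt18, Krt19 and Tfap2c on 14, Eomes on 12, Gata3 on 10, Cdx2 on 8 and Elf5 on 0. The summed level of 8 fibroblast markers ran from 0.906 to 3.35 after EGFP, 2.06 to 7.13 after Ptn_VP64, 1.14 to 3.38 after Ptn_DEL and 1.65 to 7.01 after Ptn_Delta. Col3a1 was well above background on 13 arrays, Thy1 on 10, Col1a1 on 8 (4 after Ptn_VP64 and 1 after EGFP), Col1a2 on 7, Dcn on 2, Lum on 1, and Pdgfrb and Postn on 0. In these bulk samples, fewer cells of a type and less RNA per cell cannot be told apart.

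The labels were first checked on the targeted gene. Before correction, the level of Ptn was -0.68, -1.25, -1.30 and -1.61 after EGFP and 2.65, 3.47, 3.67 and 2.60 after Ptn_VP64. It was -2.59, 0.11, -1.61 and 0.69 after Ptn_DEL and 0.54, -0.88, -0.65 and 0.99 after Ptn_Delta. All 4 Ptn_VP64 arrays lay above the other 12. Of the Ptn_VP64 spots, those of replicates 1, 2 and 4 were marked as outliers, and that of replicate 2 also lay in a patch. The planned test thus kept only replicate 3, and the patch-corrected scale leaves out replicate 2. On the patch-corrected scale Ptn was 4.27 ± 0.76 (SE) higher after Ptn_VP64 than after EGFP, with a limma adjusted p of 0.250 when arrays were averaged to 2 samples a group, so even the targeted gene missed the threshold in that test.

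None of the 29 Polycomb genes passed the threshold in any of the 6 comparisons between constructs or in the test over all 4 groups. The test was limma with arrays averaged to 2 samples a group in each of the 3 possible pairings, the largest p kept and Benjamini-Hochberg adjustment over all genes, at an adjusted p under 0.05. The share of all genes called was also 0.0% in each comparison, so the count of 0 Polycomb genes matched the background. At an unadjusted p under 0.05, 2 Polycomb genes (Aebp2 and Pcgf6) stood out between Ptn_VP64 and EGFP against 3.86% of all genes, 1 (Aebp2) between Ptn_DEL and EGFP against 2.66%, and 3 (Aebp2, Cbx2 and Yaf2) between Ptn_Delta and EGFP against 4.02%. Against Ptn_Delta, 3 (Pcgf3, Pcgf6 and Phc2) did so after Ptn_VP64 against 2.92% of all genes, and 0 after Ptn_DEL against 0.653%. Between Ptn_VP64 and Ptn_DEL there were 2 (Pcgf3 and Pcgf6) against 1.84%, and in the test over all groups 2 (Aebp2 and Pcgf6) against 2.03%. The 3 comparisons with EGFP share its 4 arrays. Over all genes, the unadjusted calls against EGFP were mostly higher than EGFP. They were 397 higher and 98 lower for Ptn_VP64, 319 and 23 for Ptn_DEL, and 487 and 29 for Ptn_Delta. The median difference of the 29 genes was -0.13 for Ptn_VP64 minus EGFP (0.07 for all genes), 0.12 for Ptn_DEL minus EGFP (0.17) and 0.19 for Ptn_Delta minus EGFP (0.18).

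On the patch-corrected scale the same test again called 0 of 28 Polycomb genes in every comparison. It called 0.0164% of all genes between Ptn_VP64 and EGFP and between Ptn_VP64 and Ptn_DEL, and 0.0% elsewhere. The median Polycomb difference was -0.06 for Ptn_VP64 minus EGFP, -0.03 for Ptn_DEL minus EGFP and -0.01 for Ptn_Delta minus EGFP, beside -0.01, 0.01 and 0.00 for all genes. At an unadjusted p under 0.05 there were 3 genes between Ptn_VP64 and EGFP (Aebp2, Pcgf5 and Yaf2, all higher after Ptn_VP64) against 8.02% of all genes in either direction and 5.09% in that one, and 1 between Ptn_VP64 and Ptn_Delta (Kdm2b) against 4.63%. There were 0 in the other 4, beside 2.74% of all genes for Ptn_DEL and 3.19% for Ptn_Delta against EGFP, 0.114% for Ptn_DEL against Ptn_Delta and 3.86% for Ptn_VP64 against Ptn_DEL, and 0 in the test over all groups, beside 3.81%. By construction the correction removes shifts shared by neighbouring spots and drops spots in patches, so a smaller spread between arrays is built in. All-gene medians near 0 also follow, at least in part, from that subtraction. With marked spots kept on both scales, the median within-group SD of the 28 genes was 1.16 before and 0.43 after, beside 1.07 and 0.45 for all genes. Spots in patches count only in the SDs before correction, so these do not compare the same spots. The plot of patch-corrected levels shows every array for each of the 28 genes.

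**Figure D1:**
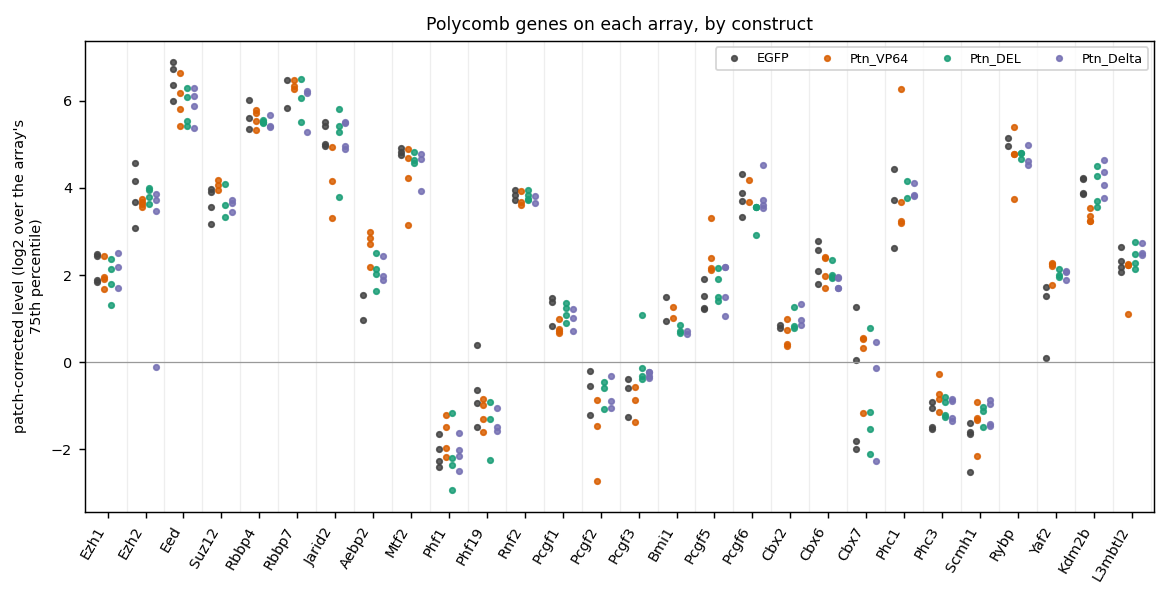
Patch-corrected level (log2 over the array's 75th percentile) of 28 Polycomb genes, with 1 point per array coloured by construct. For most genes the groups overlap; Rnf2 spans 3.60 to 3.95 over 12 arrays, while Cbx7 spans -2.27 to 1.26 over 15. Heights of different genes come from different probes and are not comparable.

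In the core of PRC2, Ezh2, the main methyltransferase of dividing cells, had patch-corrected levels of 4.57, 3.67, 3.07 and 4.16 after EGFP, 3.68, 3.55, 3.74 and 3.63 after Ptn_VP64, 3.80, 3.95, 3.99 and 3.64 after Ptn_DEL, and 3.72, 3.86, -0.10 and 3.47 after Ptn_Delta. The groups overlapped, and 1 Ptn_Delta array (replicate 3) lay far below the other 15, whose lowest value was 3.07. With that array in, Ptn_Delta was 1.13 ± 0.58 (SE) below EGFP, a difference that did not pass the test (limma adjusted p = 1.0). The difference was -1.93 on slide 2, which holds that array, and -0.34 on slide 1. Its Ezh2 spot was unmarked and outside any patch. Ezh1, the related enzyme of resting cells, ran from 1.31 to 2.50 over 15 arrays.

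Eed, the subunit that reads the finished mark, had patch-corrected levels of 6.00, 6.89, 6.36 and 6.72 after EGFP, 5.42, 6.65, 5.82 and 6.17 after Ptn_VP64, 5.53, 5.43, 6.09 and 6.30 after Ptn_DEL, and 5.37, 5.89, 6.11 and 6.30 after Ptn_Delta. Its spot was saturated on 8 of 16 arrays, in every group, and the 4 lowest levels (5.37, 5.42, 5.43 and 5.53, all on slide 1) are saturated spots and so lower limits. The size of a difference between groups is therefore not given for Eed. Suz12, the scaffold of PRC2, had 3.90, 3.18, 3.55 and 3.98 after EGFP, 3.94, 4.19 and 4.07 after Ptn_VP64, 3.60, 4.08 and 3.34 after Ptn_DEL, and 3.65, 3.73 and 3.45 after Ptn_Delta. The groups overlapped except that the 3 Ptn_VP64 arrays lay above the 3 Ptn_Delta arrays. The histone-binding subunits Rbbp4 and Rbbp7, which other chromatin complexes also use, ran from 5.32 to 6.01 over 14 arrays and from 5.29 to 6.50 over 11. The Rbbp7 spot was saturated on 3 arrays, and its value of 5.29 is a lower limit for that reason.

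The accessory subunits divide PRC2 into forms that reach different sites. Jarid2, which marks the form called PRC2.2, had patch-corrected levels of 5.02, 5.51, 4.96 and 5.43 after EGFP, 3.31, 4.15 and 4.94 after Ptn_VP64, 5.29, 5.81, 3.80 and 5.41 after Ptn_DEL, and 4.89, 5.51, 4.95 and 5.49 after Ptn_Delta. The 3 Ptn_VP64 arrays lay below all 4 EGFP arrays, by 0.89 ± 0.53 (SE) in the fit (limma adjusted p = 0.776), and overlapped those of Ptn_DEL and Ptn_Delta.

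Aebp2, a zinc-finger partner of Jarid2 in PRC2.2, is described in full because of its values. Its patch-corrected levels were 0.97 and 1.54 after EGFP, 2.99, 2.18, 2.85 and 2.72 after Ptn_VP64, 2.03, 2.14, 1.62 and 2.50 after Ptn_DEL, and 1.97, 1.89 and 2.43 after Ptn_Delta. The remaining pair of EGFP arrays, with uncorrected levels of 0.01 and -3.54, lay in dim patches. Both EGFP arrays with a value therefore lay below all 11 arrays of the other groups. With so few EGFP arrays, Aebp2 is not in the counts of non-overlapping genes given below, and no share of all genes was taken for this separation.

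Before correction the fitted difference of Aebp2 between Ptn_VP64 and EGFP was 3.59 ± 0.99 (SE), and after it 1.43 ± 0.40. The latter had an unadjusted p of 0.0114 and a limma adjusted p of 0.473. Fitted over unaveraged arrays, which counts technical repeats as replicates and so gives p-values that are too small, it had an adjusted p of 0.0361 and was the 1 Polycomb gene called in that comparison, beside 3.18% of all genes. The second Aebp2 probe, which stands for another accession, had patch-corrected levels of 1.89 to 2.39 on 3 Ptn_VP64 arrays and at most 1.07 on the 11 others. No share of all genes was taken for that separation either. The uncorrected sums of trophoblast markers given above, and in part of fibroblast markers, also ran higher on the Ptn_VP64 arrays than on the EGFP arrays. Those of primitive endoderm markers (5.17 to 21.3 after EGFP, 7.99 to 13.0 after Ptn_VP64) and neural markers (2.71 to 6.91, 3.48 to 6.06) overlapped. Single genes of these lists still differed. Dab2 was well above background on 0 EGFP and 4 Ptn_VP64 arrays, and Sox1 on 3 and 1. The part of all these markers in the Aebp2, Pcgf5 and Kdm2b differences was not tested.

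Mtf2, a Tudor-domain subunit of the form PRC2.1, ran from 3.16 to 4.91 over 13 arrays. Its relative Phf1 ran from -2.95 to -1.16 over 16 arrays and was well above background on 13, but on 1 of 4 after EGFP. Phf19, the third Tudor-domain subunit, had the largest negative difference between Ptn_DEL and EGFP and the largest positive one between Ptn_VP64 and Ptn_DEL by the naming rule, which takes genes with at least 2 arrays in both groups and the same sign after patch correction. Its patch-corrected levels were -0.64, -0.94, 0.40 and -1.48 after EGFP, -0.84, -0.99, -1.60 and -1.31 after Ptn_VP64, -0.91, -2.24 and -1.29 after Ptn_DEL, and -1.49, -1.57 and -1.06 after Ptn_Delta. Every pair of groups overlapped. Before correction the first difference was -1.32 ± 0.97 (SE) and the second 1.13 ± 1.04, and neither passed (adjusted p = 1.0 for both). After patch correction with marked spots left out, from which the rule takes the sign, they were -0.3 and 0.0 (rounded). The fourth Ptn_DEL spot, at -4.91, lay in a dim patch, and neither it nor the one at -2.24 was well above background.

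RNF2, the main RING enzyme of PRC1 in ES cells, had several spots in patches. Before correction, Rnf2 was 4.69, 4.83, 3.78 and 3.78 after EGFP, 3.32, -0.03, 3.91 and 3.68 after Ptn_VP64, 4.504, 3.36, 4.00 and 3.79 after Ptn_DEL, and -0.53, -1.85, 4.02 and 4.02 after Ptn_Delta. The 3 values below 0 were all on slide 1 at spots in patches, with surrounding spots shifted by -2.14, -3.42 and -4.73. The uncorrected differences for Rnf2 were the largest negative ones by the naming rule for Ptn_VP64 minus EGFP (-1.45 ± 1.38, SE) and Ptn_Delta minus EGFP (-2.81 ± 1.38) and the largest positive one for Ptn_DEL minus Ptn_Delta (2.49 ± 1.38).

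With spots in patches left out, Rnf2 was 3.85, 3.72 and 3.94 after EGFP, 3.60, 3.93 and 3.67 after Ptn_VP64, 3.72, 3.85, 3.95 and 3.75 after Ptn_DEL, and 3.81 and 3.64 after Ptn_Delta. All groups overlapped, and its within-group SD of 0.127 was the lowest of the 28 genes. The corrected differences were -0.03 ± 0.21 (SE) for Ptn_VP64 minus EGFP, -0.08 ± 0.21 for Ptn_Delta minus EGFP and 0.09 ± 0.23 for Ptn_DEL minus Ptn_Delta. The other RING gene, Ring1, was at -3.35, -2.24, -4.29 and -2.71 after EGFP, -3.44, -2.02, -2.29 and -3.13 after Ptn_VP64, -2.92, -2.66, -2.46 and -4.600 after Ptn_DEL, and -2.80, -2.58, -4.44 and -4.68 after Ptn_Delta before correction. Of these spots, 1 was well above background (Ptn_VP64 replicate 1), so no difference is given.

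**Figure D2:**
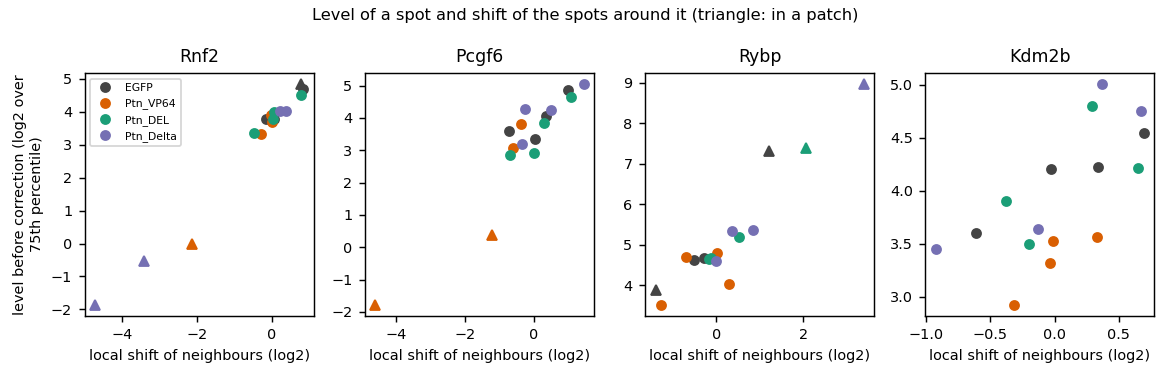
Level before correction (log2 over the 75th percentile) of the Rnf2, Pcgf6, Rybp and Kdm2b spots on 16 arrays against the median log2 shift of the spots around them; triangles mark spots inside a patch and colours mark constructs. The low Rnf2 and Pcgf6 values and the high Rybp values sit at triangles, while Kdm2b has none.

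The PCGF protein sets the type of PRC1. Pcgf6, of the form PRC1.6 that silences germline genes, had the smallest unadjusted p of the Polycomb genes in the planned test. Its difference for Ptn_VP64 minus EGFP was -4.597 ± 0.78 (SE), with an unadjusted p of 0.0011 and a limma adjusted p of 0.67. Its uncorrected levels were 4.87, 3.58, 4.05 and 3.35 after EGFP and 3.81, 3.06, -1.77 and 0.36 after Ptn_VP64. They were 4.64, 2.87, 3.85 and 2.91 after Ptn_DEL and 5.04, 4.26, 4.24 and 3.21 after Ptn_Delta. Both low Ptn_VP64 spots lay in patches, with surrounding spots shifted by -4.59 and -1.23, and the other pair of Ptn_VP64 spots had been marked as outliers and left out of that test.

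With marked spots kept and spots in patches left out, Pcgf6 was 3.89, 4.32, 3.70 and 3.33 after EGFP, 4.17 and 3.67 after Ptn_VP64, 3.57, 3.55, 3.57 and 2.91 after Ptn_DEL, and 3.60, 4.52, 3.73 and 3.55 after Ptn_Delta. The 2 Ptn_VP64 arrays lay above the 4 Ptn_DEL arrays, every other pair of groups overlapped, and the difference between Ptn_VP64 and EGFP turned to 0.12 ± 0.31 (SE).

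Pcgf2 (Mel18), of canonical PRC1, had patch-corrected levels of -0.21, -1.22 and -0.54 after EGFP, -2.72, -1.47 and -0.87 after Ptn_VP64, -0.46, -0.59 and -1.08 after Ptn_DEL, and -1.05, -0.31 and -0.90 after Ptn_Delta. Ptn_VP64 overlapped each other group and was 0.68 ± 0.47 (SE) below EGFP (adjusted p = 0.825), with the value of -2.72 not well above background. Bmi1, its close relative, ran from 0.66 to 1.501 on only 9 arrays, and its pair of probes differed in sign between Ptn_VP64 and EGFP (-0.09 and 1.20).

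Pcgf3, which shares the PRC1.3/5 form with Pcgf5, was named in 3 comparisons for the size of its uncorrected difference: 1.75 ± 0.83 (SE) for Ptn_DEL minus EGFP, -2.18 ± 0.83 for Ptn_VP64 minus Ptn_Delta and -2.04 ± 0.83 for Ptn_VP64 minus Ptn_DEL, each with an adjusted p of 1.0. Its patch-corrected levels were -1.26, -0.60 and -0.39 after EGFP, -0.87, -1.37 and -0.58 after Ptn_VP64, -0.31, 1.08, -0.38 and -0.13 after Ptn_DEL, and -0.22, -0.35, -0.23 and -0.32 after Ptn_Delta. The arrays of Ptn_DEL and Ptn_Delta lay above those of EGFP and of Ptn_VP64 with no overlap, the closest at -0.38 after Ptn_DEL and -0.39 after EGFP. No share of all genes was taken for this joint separation, and shares for each pair of groups are given below. The lowest values of the latter groups (-1.26 and -1.37) were not well above background, nor were the spots left out as in patches, so the sizes of the differences are uncertain. As fitted, the corrected differences were 0.73 ± 0.33 (SE) for Ptn_DEL minus EGFP, -0.57 ± 0.37 for Ptn_VP64 minus Ptn_Delta and -0.92 ± 0.37 for Ptn_VP64 minus Ptn_DEL, all with adjusted p = 1.0. Pcgf1, of the form PRC1.1, ran from 0.68 to 1.47 over 14 arrays.

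Pcgf5 is described because of its values. It was 1.24, 1.52, 1.92 and 1.22 after EGFP, 3.30, 2.12, 2.16 and 2.39 after Ptn_VP64, 1.90, 1.41, 2.16 and 1.49 after Ptn_DEL, and 2.20, 1.07, 2.18 and 1.505 after Ptn_Delta (patch-corrected; no spot lay in a patch). The 4 Ptn_VP64 arrays lay above the 4 EGFP arrays and overlapped the other groups. The difference from EGFP was 1.01 ± 0.39 (SE), 1.33 on slide 1 and 0.70 on slide 2, with an unadjusted p of 0.0357 and a limma adjusted p of 0.566. It stayed between 0.73 and 1.30 as each of the 16 arrays was left out, with unadjusted p between 0.0179 and 0.0895. By the second Pcgf5 probe, Ptn_VP64 ran from 0.88 to 2.76 and EGFP from 0.22 to 0.76, a difference of 1.32 with no overlap. No share of all genes was taken for this second probe.

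Pcgf5 has 3 starts in RefSeq, and the array does not show which one its transcripts used. The stretches upstream of the first and the second are shown because they differ in their number of CG dinucleotides, marked by capitals. KDM2B-PRC1 is known to bind CG-rich DNA where it is unmethylated, and methylation was not measured here. Both stretches are given 5′ to 3′, on the plus strand, from the RefSeq table of build GRCm38.p6, and hold 250 bases each.
Pcgf5 start 1, chr19:36348079-36348328: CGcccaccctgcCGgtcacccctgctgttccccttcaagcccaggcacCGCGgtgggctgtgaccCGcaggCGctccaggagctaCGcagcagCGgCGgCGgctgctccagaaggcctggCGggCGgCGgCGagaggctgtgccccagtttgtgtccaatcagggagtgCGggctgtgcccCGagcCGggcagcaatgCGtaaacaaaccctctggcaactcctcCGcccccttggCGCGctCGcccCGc
Pcgf5 start 2, chr19:36378817-36379066: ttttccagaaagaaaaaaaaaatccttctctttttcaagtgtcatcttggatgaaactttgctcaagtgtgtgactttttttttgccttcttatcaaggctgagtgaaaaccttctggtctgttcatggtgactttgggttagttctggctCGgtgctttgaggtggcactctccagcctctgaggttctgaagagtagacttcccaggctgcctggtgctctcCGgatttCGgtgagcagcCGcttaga
The first holds 23 CG dinucleotides and the second 4. The stretch upstream of the third start, not shown, holds 28. Windows were matched for 27 of the 31 genes, 39 in all. Their median was 21 CG dinucleotides in 250 bases, beside 6 over all 32851 windows, and 32 of the 39 exceeded that median.

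Among promoter motifs searched on both strands of the 250 bases, the E2F site TTTCCCGC was found upstream of Suz12 and Phf19 only, in 5.13% of Polycomb windows beside 0.895% of all windows. They are shown because both genes code for PRC2 subunits; capitals mark the match. Each is printed on its gene's own strand; for Phf19 the motif reads on the opposite strand, so the capitals show its reverse complement.
Suz12, chr11:79992856-79993105, plus strand: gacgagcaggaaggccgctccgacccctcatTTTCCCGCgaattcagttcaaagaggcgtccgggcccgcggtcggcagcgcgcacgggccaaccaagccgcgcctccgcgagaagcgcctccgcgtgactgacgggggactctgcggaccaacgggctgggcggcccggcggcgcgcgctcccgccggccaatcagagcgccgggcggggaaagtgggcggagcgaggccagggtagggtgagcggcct
Phf19, chr2:34913977-34914226, minus strand: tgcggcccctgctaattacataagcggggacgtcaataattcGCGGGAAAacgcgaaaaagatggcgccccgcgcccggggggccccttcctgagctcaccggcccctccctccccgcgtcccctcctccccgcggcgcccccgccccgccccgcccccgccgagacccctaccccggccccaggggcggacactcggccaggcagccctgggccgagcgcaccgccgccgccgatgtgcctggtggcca
The NF-Y motif CCAAT was in 35.9% of Polycomb windows and 33.8% of all windows. The Sp1 motif GGGCGGG was in 46.2% beside 23.4%, and the E-box CACGTG in 17.9% beside 6.02%. The second E2F form searched, TTTGGCGC, was in 0.0% beside 0.417%. The median GC content was 66.0% in Polycomb windows and 52.4% in all windows. The shares were not matched for GC content, so they do not show a preference of Polycomb genes for a motif. A match describes the letters in the window and not binding, and a match to TTTCCCGC can overlap one to the reverse of GGGCGGG.

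The CBX, PHC and SCM proteins belong to canonical PRC1, the form that compacts chromatin. Cbx7, the main CBX protein of ES cells, had the highest within-group SD of the 28 genes, 1.29. Its patch-corrected levels were -1.80, 0.06, -1.99 and 1.26 after EGFP, -1.17, 0.32, 0.53 and 0.56 after Ptn_VP64, -1.53, -1.15, 0.79 and -2.10 after Ptn_DEL, and -0.14, 0.45 and -2.27 after Ptn_Delta. In all 4 groups the arrays split, 7 below -1 and 7 above 0, and the groups overlapped. Its probe was well above background on 1 EGFP array, and on 4, 4 and 3 arrays of Ptn_VP64, Ptn_DEL and Ptn_Delta. The largest positive uncorrected difference between Ptn_VP64 and Ptn_Delta by the naming rule, 1.79 ± 1.08 (SE), was that of Cbx7, and after correction it was 0.44 ± 0.94.

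Cbx2, another reader of the PRC2 mark, had the largest negative uncorrected difference between Ptn_DEL and Ptn_Delta by the naming rule (-0.99 ± 0.71, SE); without the rule, that of Rybp was more negative (-1.14 ± 0.74). Its patch-corrected levels were 0.77 and 0.84 after EGFP, 0.38, 0.42, 0.74 and 1.00 after Ptn_VP64, 0.82, 0.78 and 1.28 after Ptn_DEL, and 0.86, 0.97 and 1.33 after Ptn_Delta. The 3 Ptn_Delta arrays lay just above the 2 EGFP arrays, and every other pair of groups overlapped. Its uncorrected difference between Ptn_Delta and EGFP (2.44 ± 0.71, unadjusted p = 0.011) came to 0.32 ± 0.37 after correction.

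Cbx6 ran from 1.69 to 2.77 over 16 arrays, Phc1 from 2.61 to 6.27 over 12, Phc3 from -1.53 to -0.27 over 16 and Scmh1, well above background on 12 arrays, from -2.53 to -0.86 over 15. None of these 4 genes had an unadjusted p under 0.05 on the patch-corrected scale. Cbx8 was not well above background on any array. Phc2, measured only without correction, was 3.40 ± 1.39 (SE) higher after Ptn_VP64 than after Ptn_Delta, from 4 and 2 arrays, with an unadjusted p of 0.0385 and an adjusted p of 1.0. Of the 2 Ptn_Delta spots, 1 was at -4.06, in a patch and not well above background.

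Variant PRC1 carries RYBP or YAF2 in place of a CBX protein. Rybp was 4.95 and 5.15 after EGFP, 4.79, 3.74, 4.79 and 5.40 after Ptn_VP64, 4.67, 4.81 and 4.81 after Ptn_DEL, and 4.54, 4.61 and 4.97 after Ptn_Delta (patch-corrected). The 2 EGFP arrays lay above the 3 Ptn_DEL arrays, and every other pair of groups overlapped. The uncorrected values of 7.32, 7.39 and 8.96 on slide 1 came from spots in bright patches.

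Yaf2 was 0.11, 1.73 and 1.53 after EGFP, 2.26, 2.21, 2.28 and 1.77 after Ptn_VP64, 2.15, 1.99 and 1.95 after Ptn_DEL, and 2.07, 2.10 and 1.88 after Ptn_Delta (patch-corrected). Each of the 10 TALE arrays with a value lay above the 3 EGFP arrays, narrowly, with the lowest at 1.77 and the highest EGFP array at 1.73. No share of all genes was taken for this joint separation, and shares for each TALE group alone are given below. The fitted difference from EGFP was 1.26 ± 0.48 (SE) after Ptn_VP64 (unadjusted p = 0.0435, limma adjusted p = 0.607), 0.74 ± 0.34 after Ptn_DEL and 0.71 ± 0.34 after Ptn_Delta. As arrays were left out in turn the first ran from 0.42 to 1.31. Its second probe, above background on 7 arrays, ran the opposite way, at -0.89 for Ptn_VP64 minus EGFP, -1.16 for Ptn_DEL and -2.07 for Ptn_Delta. Before correction Yaf2 was the largest positive difference by the naming rule for Ptn_VP64 minus EGFP (1.69 ± 1.22, SE) and Ptn_Delta minus EGFP (2.75 ± 0.95).

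Kdm2b codes for the CG-binding subunit of PRC1.1. It was 3.85, 3.89, 4.23 and 4.21 after EGFP, 3.24, 3.23, 3.35 and 3.54 after Ptn_VP64, 3.57, 4.28, 3.70 and 4.505 after Ptn_DEL, and 4.08, 4.37, 3.77 and 4.63 after Ptn_Delta (patch-corrected). The 4 Ptn_VP64 arrays lay below the other 12, with the highest at 3.539 and the lowest of the others at 3.566. Of the 17 Polycomb genes with enough arrays to ask, this held for 1, beside 1.4% of all genes. None lay above, beside 2.36%.

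Ptn_VP64 was 0.70 ± 0.34 (SE) below EGFP for Kdm2b (-0.63 on slide 1 and -0.78 on slide 2), with an unadjusted p of 0.0777 and a limma adjusted p of 0.687. It was 0.87 ± 0.34 below Ptn_Delta (unadjusted p = 0.0378, adjusted p = 1.0) and 0.67 ± 0.34 below Ptn_DEL. The second Kdm2b probe had Ptn_VP64 0.40 below EGFP, with overlapping arrays. Of the ES cell markers, 12 of 13 had a negative difference between Ptn_VP64 and EGFP (median -0.39, none called). The same held for 10 of 13 between Ptn_DEL and EGFP (median -0.32) and 11 of 13 between Ptn_Delta and EGFP (median -0.24). The part of these markers in the Kdm2b difference was not tested. L3mbtl2, of PRC1.6, ran from 1.11 to 2.77 over 15 arrays.

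**Figure D3:**
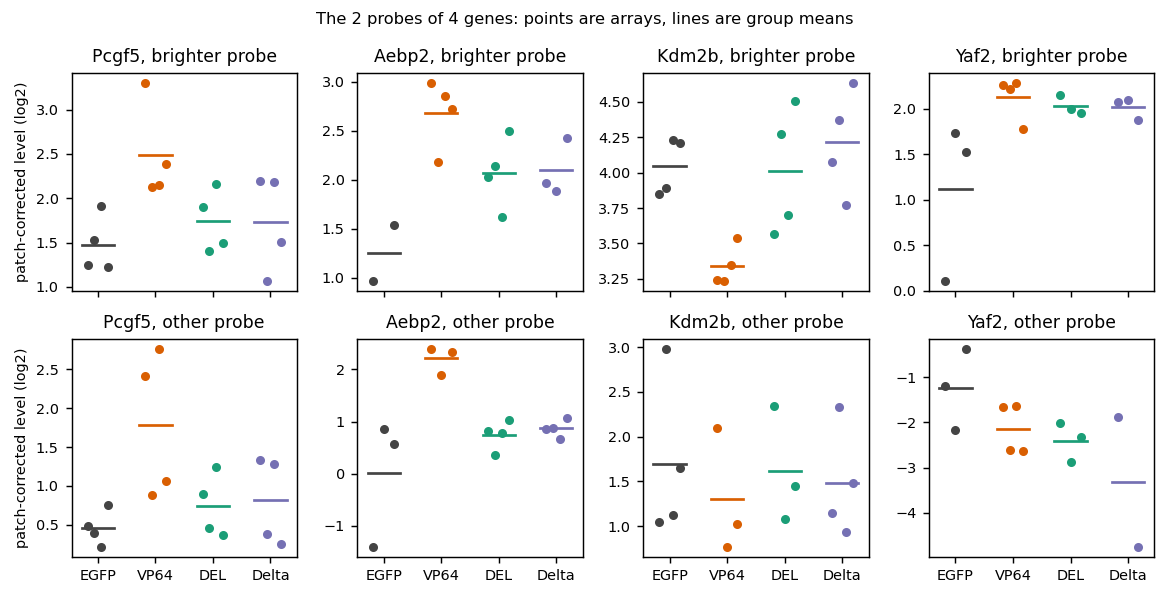
Patch-corrected level (log2) of Pcgf5, Aebp2, Kdm2b and Yaf2 by the brighter probe (top) and the other probe (bottom), with 1 point per array and a line at each group mean. Both probes of Pcgf5 and of Aebp2 have Ptn_VP64 above EGFP, while the probes of Yaf2 run opposite ways.

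Over all patch-corrected genes with at least 3 arrays in both groups, Polycomb genes whose arrays did not overlap were near the background in number. The separations of Aebp2, Pcgf6, Cbx2 and Rybp given above rest on groups of 2 arrays and are not counted here. No share of all genes was taken for them. Between Ptn_VP64 and EGFP, 2 of 22 (Pcgf5 and Yaf2) lay higher beside 8.35% of all genes, and 2 (Jarid2 and Kdm2b) lower beside 5.56%. For Ptn_DEL minus EGFP, 2 (Pcgf3 and Yaf2) lay higher beside 3.95%, and for Ptn_Delta minus EGFP the same pair lay higher beside 4.53%; none lay lower in either, beside 2.5 and 2.98%. Against Ptn_Delta, 2 of 25 lay higher after Ptn_VP64 (Suz12 and Rbbp7) beside 7.52%, where 1 of the 3 Rbbp7 values after Ptn_Delta is the lower limit above, and 3 lower (Pcgf3, Kdm2b and L3mbtl2) beside 7.13%, while after Ptn_DEL none did in either direction, beside 0.924 and 1.04%. Between Ptn_VP64 and Ptn_DEL none lay higher and 2 (Pcgf3 and Kdm2b) lower, both beside 5.96%. The other probes of a gene gave the sign of the brighter one in 8 of 13 cases for Ptn_VP64 minus EGFP, 8 of 13 for Ptn_DEL minus EGFP and 6 of 12 for Ptn_Delta minus EGFP. It was 8 of 12 for Ptn_VP64 minus Ptn_Delta, 4 of 12 for Ptn_DEL minus Ptn_Delta and 8 of 13 for Ptn_VP64 minus Ptn_DEL. The plot of differences sets the scales side by side.

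**Figure D4:**
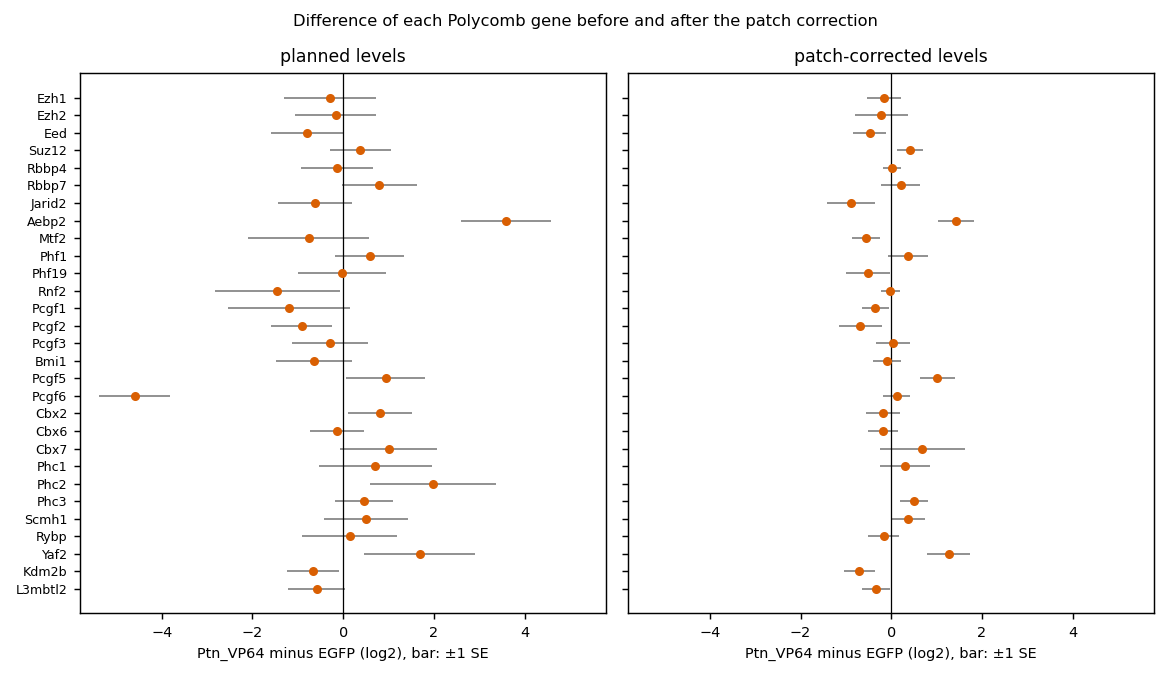
Difference between Ptn_VP64 and EGFP (log2, bars ±1 SE) for the 29 tested Polycomb genes on the planned scale (left) and for 28 on the patch-corrected scale (right). The left scale leaves out spots marked as outliers and the right scale keeps them. Pcgf6 moves from -4.597 to 0.12 and Rnf2 from -1.45 to -0.03, while Pcgf5 stays near 1 (0.93 and 1.01) and Kdm2b near -0.7 (-0.66 and -0.70). Eed is drawn as measured, with 8 saturated spots.

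By role, the patch-corrected differences between Ptn_VP64 and EGFP had a median of -0.08 for 6 PRC2 core genes (Eed and Rbbp7 as measured), -0.52 for 5 accessory genes, -0.03 for 6 PCGF genes, 0.34 for 6 canonical PRC1 genes and -0.26 for 4 variant PRC1 genes, beside -0.01 for all genes. None of these groups held a called gene. For Ptn_DEL minus EGFP the same medians lay between -0.13 and 0.14, and for Ptn_Delta minus EGFP between -0.14 and 0.20.

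The genes around the complexes were read from 3 further lists. Of 31 partners of Polycomb proteins, 23 had patch-corrected levels and 0 passed in any comparison. The smallest p between Ptn_VP64 and EGFP was that of Bcor, a subunit of PRC1.1, at 0.94 ± 0.27 (SE, unadjusted p = 0.0105, limma adjusted p = 0.463). Of 16 genes listed as opposing Polycomb, enzymes and other subunits of chromatin complexes among them, 13 had levels and 0 passed. The smallest p between Ptn_VP64 and EGFP was that of Ash1l, a histone methyltransferase (0.50 ± 0.23, SE, limma adjusted p = 0.661). Whether each listed gene opposes Polycomb in these cells was not tested.

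Of 37 developmental genes known as Polycomb targets in ES cells, 22 had patch-corrected levels and 0 passed with arrays averaged, and 5 had an unadjusted p under 0.05 between Ptn_VP64 and EGFP (4 higher and 1 lower), beside 8.02% of all genes. The smallest p was that of Wnt6, a signalling ligand, at 1.76 ± 0.53 (SE, limma adjusted p = 0.478). The differences of the 22 were positive for 12 and negative for 10, with a median of 0.18 beside -0.01 for all genes. In the unaveraged fit, which counts technical repeats as replicates and calls 3.18% of all genes, Gata2 (1.91 ± 0.43, SE, limma adjusted p = 0.0358) and Wnt6 (1.72 ± 0.42, adjusted p = 0.0457) were called. For Ptn_DEL minus EGFP and Ptn_Delta minus EGFP, 0 of the 22 had an unadjusted p under 0.05, with medians of 0.07 and 0.18. The target list shares Gata3, Cdx2 and Eomes with the trophoblast list. The summed uncorrected level of that list was higher on the Ptn_VP64 arrays. The part of these shared genes in the median was not tested.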

How the data were processed

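RNA of 16 cultures or repeats, 4 per construct, was measured on 1-colour Agilent arrays. The processed signal is an intensity that the authors deposited, per the file headers from Feature Extraction 11.5.1.1, with background subtracted, spatial trend removed and no scaling across arrays. The series' value table that the authors deposited is on a log2 scale, holds equal quantiles in its 16 columns, and served as an alternative; the array annotation names mm9. The sources used here do not say how technical repeats map to arrays, so p-values measure the spread between these samples, which may be technical. Intensities were scaled to each array's 75th percentile. Spots marked as outliers were left out of the planned test and kept on the patch-corrected scale. Spots of a probe were averaged, and the brightest probe stood for a gene. The test was limma 3.58.1 (2-sided, all 4 groups), with slide as a term in the pairing 1+2 and 3+4. In the other pairings a sample takes 1 array from each slide, and no slide term was used. Slide cancels there only where both arrays of a sample have a value, so left-out spots can mix slide into a difference. Printed differences and SEs belong to the pairing with the largest p. For patch correction, the local shift is the median, in a window of 21 by 21 spots, of the difference from the median over arrays at 17906 bright spots; spots whose shift departed from the median shift of their array by over 1 (log2) were left out, and at least 2 arrays had to remain in every group. The normexp alternative used the median signal (intensity, per the file headers) because the mean signal it was written for was not used here. Fits were tested on simulated data.

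Named genes were those called, 11 fixed subunits, and per comparison the largest positive and negative difference with at least 2 arrays a group and the same sign after patch correction; Aebp2, Pcgf5 and others singled out beyond this were chosen after their values were seen. The genes and lists were chosen with earlier results of these data known. Names came from RefSeq accessions in a GRCm38.p6 table.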

Additional observations from a re-analysis of the deposited data

Results flagged for a closer look

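In 53 groups of 4 arrays of the tested Polycomb genes, 2 values stood apart by Dixon's test, which chance alone gives in about 1 group in 20. Both were of Pcgf1, the PCGF protein of PRC1.1. Ptn_VP64 replicate 2 was at -0.23 while the other 3 arrays ran from 0.57 to 0.70; the surrounding spots were shifted by -0.98, and its patch-corrected level was 0.75. Ptn_DEL replicate 1 was at 1.97 while the other 3 ran from 1.04 to 1.18; the surrounding spots were shifted by 0.62, and its patch-corrected level was 1.35.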

How the results depend on the processing

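The count of 0 called Polycomb genes held in all 7 tests under each alternative run, leave-one-out fits included (range 0 to 0), with 2 exceptions, both between Ptn_VP64 and EGFP and both with arrays unaveraged. With patch correction and the replicate number as a block, 1 was called (Pcgf5, 1.43 ± 0.30, SE, limma adjusted p = 0.0275), and with patch correction and marked spots kept, an alternative chosen after seeing the data, 1 was called (Aebp2, 1.43 ± 0.31, adjusted p = 0.0361). The replicate block without patch correction called 0 of them. Over all genes the block called 49 without patch correction and 670 with it between Ptn_VP64 and EGFP, where 0 were called as planned; each replicate number is 1 row of 1 slide, so the block also stands for position. Deviations of same-numbered arrays from their group means correlated by -0.066 to 0.128, 0.153 to 0.469, 0.036 to 0.367 and -0.035 to 0.274 for replicates 1 to 4 as planned, and by 0.183 to 0.426, 0.232 to 0.536, -0.164 to 0.333 and 0.021 to 0.652 after patch correction. Since not every pair was over 0.1, the numbers were not taken to pair samples. Genes called between Ptn_VP64 and EGFP were 355 with patch correction unaveraged, 389 with marked spots kept as well, 4 unaveraged without it and 2 with patch correction and averaging. Signs turned for Yaf2, Rnf2, Phf19 and Pcgf6. Yaf2 was at -0.75 for Ptn_VP64 minus EGFP with the mean of its probes. Rnf2 was at 0.241 for Ptn_VP64 minus EGFP without EGFP replicate 1, with leave-one-out values from -3.149 to 0.241. Phf19 was at -0.078 for Ptn_VP64 minus Ptn_DEL without Ptn_DEL replicate 4, with leave-one-out values from -0.078 to 1.401. Pcgf6 was at 0.12 for Ptn_VP64 minus EGFP with patch correction and marked spots kept. Both Ptn_VP64 spots behind the planned Pcgf6 difference lay in patches, and the value of 0.12 rests on the other Ptn_VP64 arrays. The cause was not tested for any of these genes. Signal over background limited Ring1 and Cbx8 most, and Pcgf2, Pcgf3, Cbx7 and Scmh1 (12 arrays well above background) and Phf1 and Phf19 (13) in part; saturation limited Eed and Rbbp7.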
